A study of Mus musculus with 4 samples.

Results

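The nuclear genes for the subunits of oxidative phosphorylation were followed across infarcted mouse hearts. A gene was taken as a member when its symbol began with Ndufa, Ndufb, Ndufc, Ndufs, Ndufv, Uqcr, Cox4, Cox5, Cox6, Cox7, Cox8 or Atp5, leaving out the Ndufaf assembly factors and symbols that hold -ps. This rule, which used names and no measured value, gave 81 of the 32285 genes in the tables. They fall into 36 genes of complex I, 8 of complex III, 20 of complex IV and 17 of complex V. The hearts came from adult ICR mice, an outbred stock, given as female in the methods and as 12 weeks old in the series' design text. In every heart the LAD (left anterior descending) artery had been tied off for good, which infarcts the wall of the left ventricle, and the heart was taken on day 1, 4, 7 or 14 after it. Gene expression was measured on 10 µm fresh-frozen sections with Visium, an array of barcoded spots that can each hold several cells, and is counted in unique molecular identifiers (UMIs). There was 1 section from 1 mouse on each day and no sham-operated or unoperated heart, so day and mouse cannot be told apart and no difference between days was tested.

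Oxidative phosphorylation is carried out in the inner mitochondrial membrane. Complexes I, III and IV pass electrons from NADH to oxygen and pump protons, and complex V, the ATP synthase, uses the proton gradient to make ATP. Most subunits are encoded in the nucleus and a few in the mitochondrial genome. The heart, which beats without rest, holds some of the highest levels of these transcripts of any tissue. Several subunits of complex IV, cytochrome c oxidase, exist as a form made in most tissues and a form made in heart and skeletal muscle.

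The sections held 12640454, 15572491, 10983077 and 17315715 UMIs on days 1, 4, 7 and 14 over 9102 spots. Spots with over 1% of UMIs from hemoglobin genes were left out, which left 7503. Within each section these spots were ranked on the share of UMIs from Myh6 and Myl2, a myosin heavy chain and a light chain of ventricular cardiomyocytes, and split into 4 groups of about equal size, from Q1 with the lowest share to Q4 with the highest. UMIs were summed over each group of each section, which gave 16 libraries of 1470333 to 4738818 UMIs. The heart label was borne out by the 10 other sarcomere genes on the cardiomyocyte list, all of which passed the count filter, with a summed 40692 to 46571 UMIs per 1000000 (CPM) in Q4. The summed atrial list of 4 genes lay between 1.03 and 6.53 CPM, except in Q1 on day 7, where it reached 151. Most of that was Sln, at 127.9 CPM, with Myl4 at 21.8, Myl7 at 1.36 and Bmp10 at 0, and 1 spot there held 10 UMIs of the list. In all sections together Bmp10 had 0 UMIs, Myl7 17, Myl4 157 and Sln 197. Q1 differed between sections. Myh6 and Myl2 made up 0.773%, 0.271%, 0.229% and 1.53% of its UMIs on days 1, 4, 7 and 14. The summed fibroblast list of 6 genes stood there at 2159, 36227, 39057 and 8579 CPM, and the summed macrophage list of 5 genes at 899, 5696, 3950 and 1365. In Q4 the fibroblast list lay between 995 and 1538 and the macrophage list between 243 and 380.5. On day 7, Q1 also held 115 spots in which genes of fast skeletal muscle reached 10 UMIs. In a mixed spot, fewer cardiomyocytes and less RNA per cardiomyocyte cannot be told apart.

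Where cardiomyocyte genes were richest, in Q4, the members together made up 12.6%, 11.5%, 11.5% and 11.5% of UMIs on days 1, 4, 7 and 14. In Q1 they made up 7.50%, 3.69%, 4.61% and 8.88%. The exact 95% intervals of these shares were within 0.04 percentage points of them and cover counting error alone. Q1 was therefore below Q4 in each of the 4 sections, most deeply on day 4 and least on day 14. With the day 7 spots of skeletal muscle left out before ranking, the day 7 share in Q1 was 3.66%, against 3.69% on day 4. The order of days 4 and 7 in Q1 thus depended on those spots. The summed share of complex IV ran from 1.10% in Q1 on day 4 to 3.97% in Q4 on day 1, and that of complex III, with the fewest genes, from 0.379% to 1.33% in the same libraries. Single spots showed the same gap. Among spots of at least 1000 UMIs on day 4, the median share was 2.89% in Q1, with 5% of spots under 2.03% and 5% over 5.93%, and 11.5% in Q4, with the same limits at 9.96% and 12.9%. These 2 ranges did not overlap. On day 14 they did, at 2.08% to 11.4% in Q1 and 10.2% to 12.9% in Q4.

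**Figure D1:**
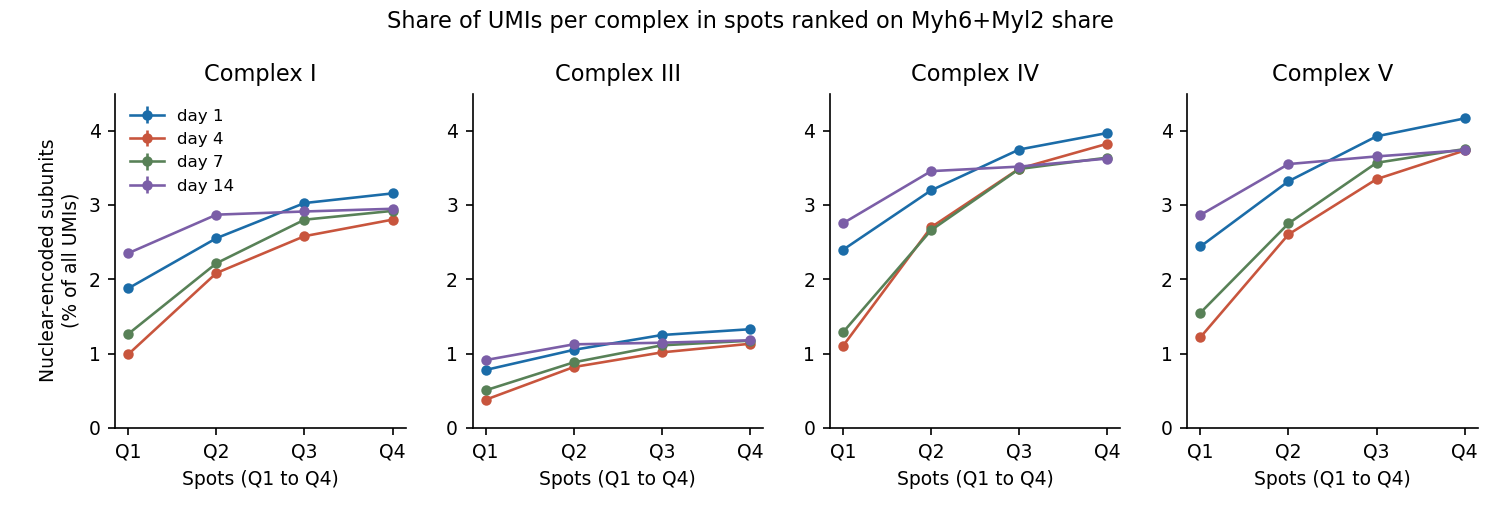
Share of all UMIs (percent) from the nuclear-encoded subunits of complexes I, III, IV and V in spots from the lowest (Q1) to the highest (Q4) share of Myh6 and Myl2, with a line for each section (1 mouse per day); bars, mostly hidden by the points, are exact 95% intervals for counting error. With the day 7 spots of skeletal muscle included, the Q1 share in all 4 complexes was lowest on day 4 and highest on day 14. The Q4 shares of the sections lay close together.

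Levels below are CPM after scaling each library with TMM factors (normalized CPM), and differences are log2 fold changes from edgeR's quasi-likelihood test with section as a block and Benjamini-Hochberg adjustment over 4769 genes of at least 1000 UMIs. Of the 81 members, 76 reached that count and were tested. In Q1 against Q4, 74 of the 76 members fell, 1 rose and 1 did not pass the test, where 32.4% of all tested genes fell and 35.2% rose. The median log2 fold change of the members was -1.35, against 0.05 over all tested genes. The fall passed the test for 36 of 36 members of complex I, 8 of 8 of complex III, 13 of 15 of complex IV and 17 of 17 of complex V. Their medians were close together, at -1.31, -1.37, -1.40 and -1.44. The fibroblast and macrophage lists moved the other way, with 5 of 6 and 4 of 4 tested genes higher, and the part of cell mixture in the fall of the members was not tested. The summed list of fast skeletal muscle reached 20340.3 CPM in Q1 on day 7, against at most 205 in any other library. Its tested genes passed the count filter through that library, so their test results say nothing of the other sections. A fibroblast or macrophage gene high in Q1 could likewise pass the filter through Q1. Without the spots that carried the skeletal muscle list, the counts were again 74 members lower and 1 higher. Of all 4709 genes tested in that fit, 1561 were lower and 1688 higher. The 10 sarcomere genes all fell, with a median of -1.17 and values from -2.39 (Tnni3) to -0.91 (Tpm1). Myh6 and Myl2, whose share set the ranking, stood at -2.79 and -2.43. Scaled by total UMIs alone, the median of all genes was higher by 0.41, and 73 members fell and 2 rose, where 19.7% of all genes fell and 54.1% rose.

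**Figure D2:**
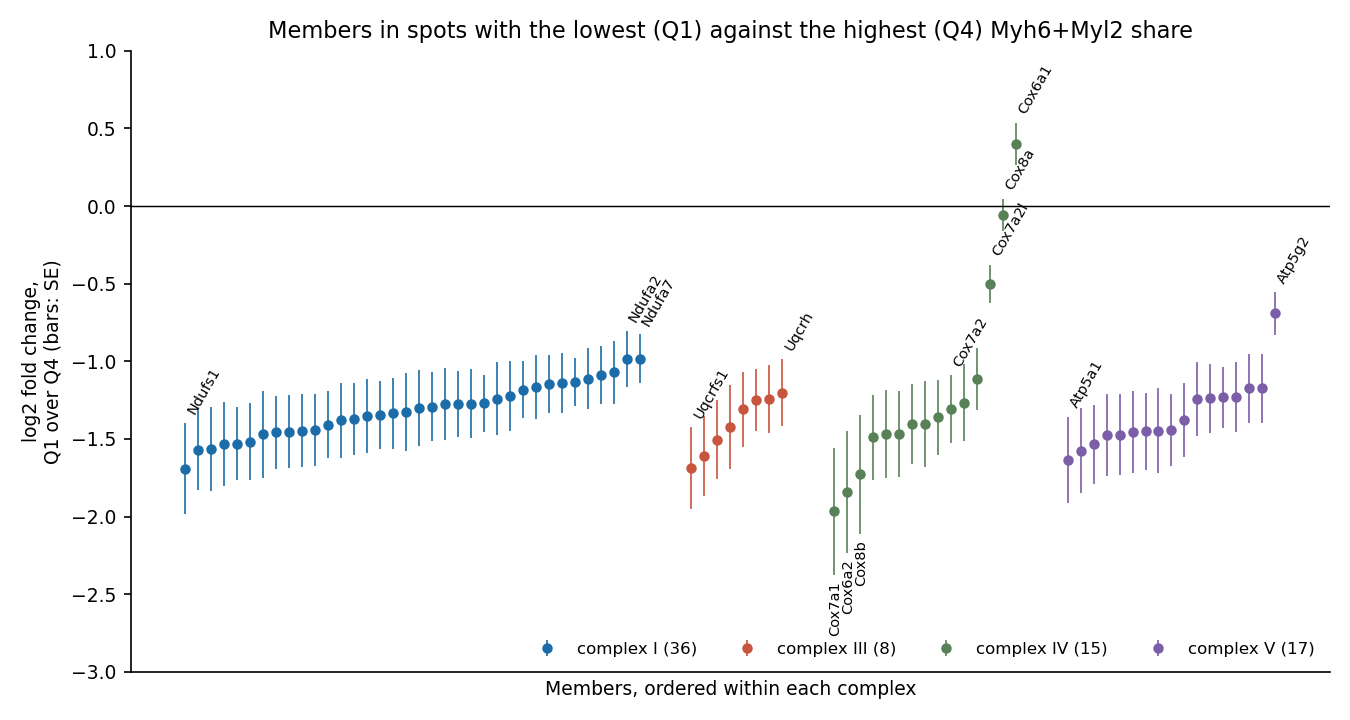
Log2 fold change of each of the 76 tested members in Q1 over Q4 (points), ordered within complexes I, III, IV and V. Bars are standard errors worked back from the F statistic of the test, with the error pooled over Q1 to Q4 of 4 sections. Complexes I, III and V lie in narrow bands below 0, while complex IV spreads from Cox7a1 at -1.97 to Cox6a1 at 0.40.

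In complex I, which takes electrons from NADH, the deepest fall was that of Ndufs1 (log2 fold change -1.69 ± 0.29 SE, adjusted p = 0.000338), the largest of the iron-sulfur subunits. Its level was 581, 584, 470.1 and 526 normalized CPM in Q4 on days 1, 4, 7 and 14. In Q1 it was 217, 80.5, 103 and 355, so that the highest Q1 value lay below the lowest Q4 value. How many of all tested genes were apart in this way was not counted, for this gene or those below. Ndufv1, which carries the NADH-binding site, followed at -1.57 ± 0.26. The shallowest falls were those of the accessory subunits Ndufa7, at -0.98 ± 0.16, and Ndufa2, at -0.99 ± 0.18.

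In complex III, which passes electrons from ubiquinol to cytochrome c, the Rieske iron-sulfur protein Uqcrfs1 fell most (-1.69 ± 0.27, adjusted p = 0.000193). Its Q4 levels were 1231, 1123, 1046 and 1209 normalized CPM on days 1, 4, 7 and 14, and its Q1 levels were 404, 176, 257 and 780.1. The groups did not overlap. The core protein Uqcrc1 was close, at -1.61 ± 0.25. The small subunits fell least, with Uqcrh, the hinge protein, at -1.20 ± 0.22 and Uqcrq at -1.24 ± 0.22.

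In complex V, Atp5a1 and Atp5b, the alpha and beta subunits that form the catalytic head, fell by 1.63 ± 0.28 and 1.47 ± 0.26 on the log2 scale. Atp5a1 stood at 5253, 4606, 4062 and 4338 normalized CPM in Q4 and at 1985, 705, 1065 and 2712 in Q1 on days 1, 4, 7 and 14. Both groups were again apart. The 3 genes Atp5g1, Atp5g2 and Atp5g3 encode one and the same mature subunit c, which forms the ring that turns in the membrane. Their fold changes were not alike. Atp5g3 and Atp5g1 fell by 1.57 ± 0.27 and 1.45 ± 0.27, while Atp5g2 fell by 0.69 ± 0.14 (adjusted p = 0.000761), the shallowest fall of the 17 genes of the complex. The call for Atp5g2 was lost with Q1 and Q4 alone in the fit (-0.62, adjusted p = 0.0533) and with spots thinned to 1000 UMIs (-0.24, adjusted p = 0.0777). Q1 levels of Atp5g2 were 402, 311, 359 and 497 normalized CPM and Q4 levels 572, 682, 610.3 and 647 on days 1, 4, 7 and 14. Atp5mpl, a small subunit of the membrane part, came next after Atp5g2 at -1.17 ± 0.22.

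Complex IV held both the deepest falls and the exceptions. Of the 15 tested genes, the 3 that fell most were the heart and skeletal muscle forms Cox7a1 (-1.97 ± 0.41, adjusted p = 0.00101), Cox6a2 (-1.84 ± 0.39, adjusted p = 0.00123) and Cox8b (-1.73 ± 0.39, adjusted p = 0.00168). All 3 lie on chromosome 7 (mm10), Cox7a1 at 30184144 to 30186078, Cox6a2 at 128205435 to 128206387 and Cox8b at 140898945 to 140900446. Their standard errors were the largest of the 76 members. Other tested members on chromosome 7 fell less, with log2 fold changes from -1.53 to -1.09, Cox6b1 (-1.11) and Ndufc2 (-1.13) among them.

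Cox6a2 stood at 6752, 6355, 6039 and 6131 normalized CPM in Q4 on days 1, 4, 7 and 14. In Q1 it stood at 2626, 575, 1064 and 4004. Cox7a1 was at 3569, 3472, 2600.0 and 3349.8 in Q4 and at 1375, 252, 435 and 1994 in Q1. Cox8b was at 3361, 3407, 2839.9 and 3559 in Q4 and at 1294, 268, 777 and 2254 in Q1. For none of the 3 genes did a Q1 level reach the lowest Q4 level, a separation that was not counted over all tested genes.

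The partner forms made in most tissues behaved otherwise, each in its own way. Cox6a1 (chromosome 5, 115345642 to 115348981) was the one member that rose, with a log2 fold change of 0.40 ± 0.13 (adjusted p = 0.0184). It stood at 269.5, 339, 232 and 229 normalized CPM in Q1 and at 174, 201, 219 and 214 in Q4 on days 1, 4, 7 and 14. Q1 was higher in 4 of 4 sections, by more than counting error on days 1 and 4 and within it on days 7 and 14. The call was lost without the day 1 section (0.38, adjusted p = 0.0733) and without the day 4 section (0.35, adjusted p = 0.0621). It was also lost when genes of at least 10 UMIs were tested (0.14, adjusted p = 0.511) and with Q1 and Q4 alone in the fit (0.47, adjusted p = 0.13).

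Cox8a (chromosome 19, 7215153 to 7217616) did not pass the test (-0.06 ± 0.10, adjusted p = 0.626). Its levels were 351, 393, 338 and 456 normalized CPM in Q1 and 360.1, 392, 383 and 463 in Q4 on days 1, 4, 7 and 14, so that the groups overlapped. Scaled by total UMIs alone it was higher in Q1 (0.35, adjusted p = 0.0227). Cox7a2, in contrast, fell by 1.31 ± 0.22 (adjusted p = 0.000265), within the range of most members, from 1253, 1442, 1293 and 1625 in Q4 to 627, 391, 343 and 1108 in Q1. Cox7a2l, a related gene whose product takes part in joining complexes III and IV, fell by 0.50 ± 0.12 (adjusted p = 0.00282) with TMM scaling. It did not pass the test with Q1 and Q4 alone in the fit (-0.43, adjusted p = 0.133) or with total UMIs (-0.09, adjusted p = 0.515). Its log2 fold change was 0.12 (adjusted p = 0.457) when each spot was thinned to 1000 UMIs. Of the subunits with no tested partner, Cox4i1, the main form of subunit 4, fell by 1.40 ± 0.26, Ndufa4, now counted with complex IV, by 1.40 ± 0.28, and Cox6b1 by 1.11 ± 0.20.

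**Figure D3:**
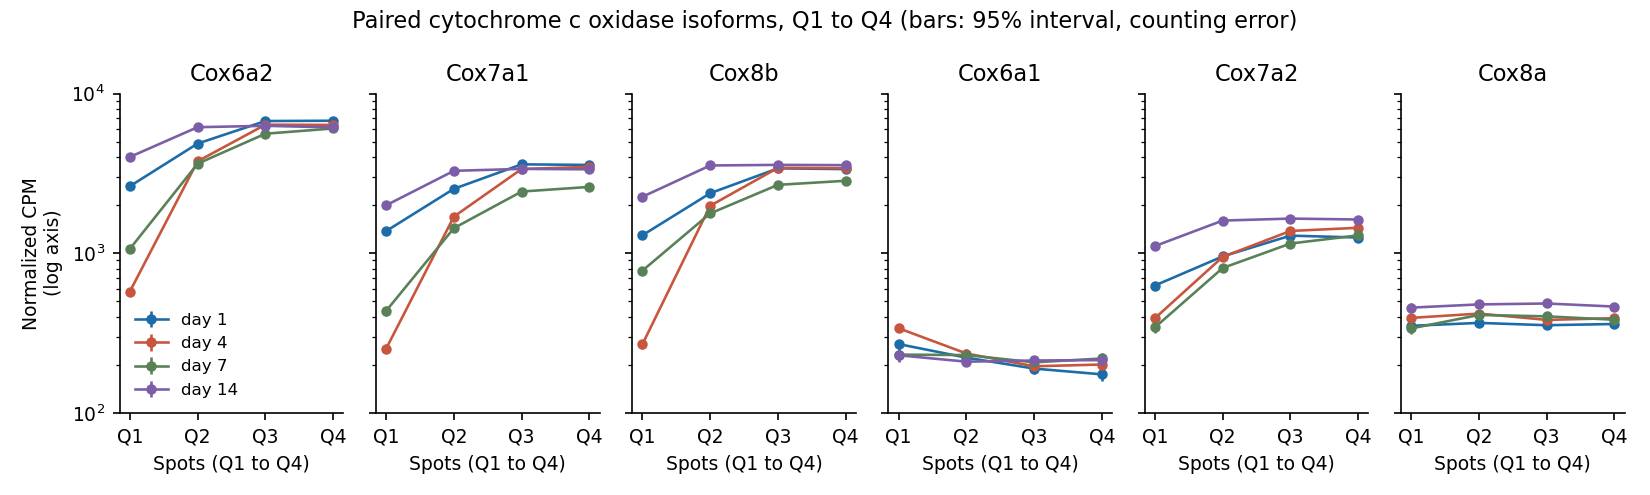
Normalized CPM (log axis) of the muscle forms Cox6a2, Cox7a1 and Cox8b and of their partners Cox6a1, Cox7a2 and Cox8a in Q1 to Q4, with a line for each section; bars, mostly hidden by the points, are 95% Poisson intervals. The muscle forms and Cox7a2 drop towards Q1, most on day 4 or 7, while Cox8a differs little between groups and Cox6a1 is somewhat higher in Q1.

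The make-up of these isoform pairs differed between Q1 and Q4. Cox6a1 made up 2.51%, 3.06%, 3.50% and 3.37% of the UMIs of Cox6a1 and Cox6a2 in Q4 on days 1, 4, 7 and 14. In Q1 it made up 9.31%, 37.1%, 17.9% and 5.42%. The share of Cox8a in Cox8a and Cox8b was 9.68%, 10.3%, 11.9% and 11.5% in Q4 and 21.3%, 59.4%, 30.3% and 16.8% in Q1. In Q1 on day 4, the general form thus outnumbered the muscle form in this pair. The share of Cox7a2 in Cox7a2 and Cox7a1 was 26.0%, 29.3%, 33.2% and 32.7% in Q4 and 31.3%, 60.8%, 44.1% and 35.7% in Q1. Among the subunit c genes, Atp5g2 made up 14.0%, 18.4%, 16.5% and 17.0% of Atp5g2 and Atp5g3 in Q4 and 22.4%, 36.2%, 33.4% and 18.9% in Q1.

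The log2 ratio of the first gene to the second was higher in Q1 in 4 of 4 sections for Cox6a1/Cox6a2 (mean difference 2.38 ± 1.46 SD, n = 4), Cox8a/Cox8b (1.83 ± 1.3), Atp5g2/Atp5g3 (0.93 ± 0.55) and Cox7a2/Cox7a1 (0.78 ± 0.77). Without the day 4 section the means were 1.22 for Cox8a/Cox8b and 0.41 for Cox7a2/Cox7a1. The ratio was also higher in 4 of 4 sections for Atp5g1/Atp5g3, by a small 0.12 ± 0.06, and for Ndufa4l2/Ndufa4 (1.82 ± 0.96), whose first gene had few UMIs. Cox4i2/Cox4i1, with 1 to 7 UMIs of Cox4i2 in each Q1 or Q4 library, went the other way (-0.55 ± 0.74), higher in 1 of 4 sections (two-sided exact sign-flip p = 0.25). The same exact test gave p = 0.13 for each of the other 6 pairs, the smallest that 4 sections allow, and 0.146 after adjustment over 7 pairs, so that none could pass a threshold of 0.05. Without the day 7 spots of skeletal muscle, a tissue that also makes the muscle forms, the day 7 difference was larger, at 3.29 in place of 2.59 for Cox6a1/Cox6a2 and 2.78 in place of 1.69 for Cox8a/Cox8b.

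**Figure D4:**
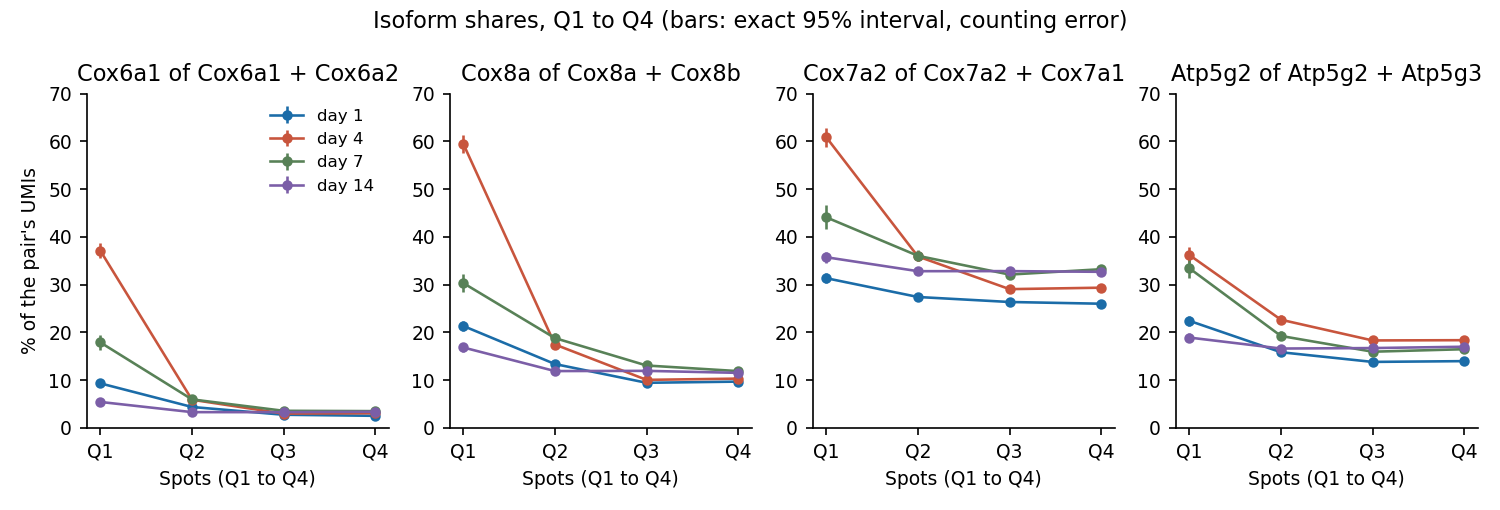
Percent of the UMIs of an isoform pair that came from the named gene in Q1 to Q4, with a line for each section; bars are exact 95% intervals for counting error. Cox6a1 and Cox8a reach 37.1% and 59.4% of their pairs in Q1 on day 4, and the sections lie close together in Q3 and Q4.

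The promoter sequences of 5 of these genes are shown because members of the same pair moved differently. RefSeq windows (GRCm38.p6) from 250 bases before to 50 bases after a gene's start were matched to 66 of 81 members, 65 by symbol and 1 by synonym, and gave 71 windows. Printed are 220 bases, from 250 to 31 bases before the start, 5′ to 3′ on the strand of the gene. Capitals mark matches to GCGCANGCG, the motif of NRF1, a factor known to bind promoters of respiratory chain genes. Cox6a2 is named only. The windows are Cox6a1 at chr5:115348989-115349208 (minus strand), Cox8a at chr19:7217647-7217866 (minus), Cox7a2 at chr9:79759884-79760103 (minus), Cox7a1 at chr7:30183921-30184140 (plus) and Cox8b at chr7:140900477-140900696 (minus).
Cox6a1: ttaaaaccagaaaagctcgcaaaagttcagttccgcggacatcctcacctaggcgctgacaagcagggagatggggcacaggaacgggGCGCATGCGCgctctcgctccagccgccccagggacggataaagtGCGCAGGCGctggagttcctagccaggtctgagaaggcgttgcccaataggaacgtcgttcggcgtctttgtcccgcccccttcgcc
Cox8a: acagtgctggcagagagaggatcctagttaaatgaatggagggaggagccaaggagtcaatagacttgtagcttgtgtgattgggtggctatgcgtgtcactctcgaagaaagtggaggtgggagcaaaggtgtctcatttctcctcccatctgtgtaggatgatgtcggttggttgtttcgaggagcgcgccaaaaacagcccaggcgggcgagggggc
Cox7a2: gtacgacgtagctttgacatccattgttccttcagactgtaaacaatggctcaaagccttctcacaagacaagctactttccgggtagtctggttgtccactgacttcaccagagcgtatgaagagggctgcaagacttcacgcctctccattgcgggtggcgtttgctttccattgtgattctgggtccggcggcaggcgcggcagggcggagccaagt
Cox7a1: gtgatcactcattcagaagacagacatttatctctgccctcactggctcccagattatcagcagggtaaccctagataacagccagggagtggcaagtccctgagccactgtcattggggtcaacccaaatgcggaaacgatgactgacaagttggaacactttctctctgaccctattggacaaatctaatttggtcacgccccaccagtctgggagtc
Cox8b: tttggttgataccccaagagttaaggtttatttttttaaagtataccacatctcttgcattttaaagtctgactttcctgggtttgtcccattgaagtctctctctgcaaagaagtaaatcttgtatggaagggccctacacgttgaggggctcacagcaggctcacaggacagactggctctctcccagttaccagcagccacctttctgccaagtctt

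Cox6a1 held GCGCANGCG starting 162 and 117 bases before the start, the first of them read on both strands and overlapping itself. The other 4 printed stretches held none of the 5 motifs searched on both strands, which were GCGCANGCG, AAGGTCA (estrogen-related receptors), CCGGAAG (ETS factors such as GABP), AAGATGGCG (YY1) and TAAAAATA (MEF2). The stretches of Cox7a1 and Cox8b had 50% and 45.0% G or C, those of Cox6a1, Cox8a and Cox7a2 61.4%, 53.6% and 54.1%. In the full windows, CCGGAAG lay 16 bases before the start of Cox6a1, and 5 bases before and 33 after that of Cox8a. Over the 71 full windows of members, 26.8% held GCGCANGCG, 21.1% CCGGAAG, 9.86% AAGATGGCG, 9.86% AAGGTCA and none TAAAAATA. Over all 32851 windows searched these shares were 6.25%, 8.86%, 1.40%, 4.72% and 2.72%. The windows of members had a median of 57.3% G or C, against 52.7% over all windows. The part of this difference in the motif shares was not tested. A match is not evidence of binding, and the absence of one says only that these letters are not in the window.

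The remaining 5 members, all of complex IV, were too rare to test. Cox8c, a testis form, had 0 UMIs in the 16 libraries, and Cox7b2 had 18. Cox4i2, a lung form of subunit 4, had 84 UMIs against 185285 for Cox4i1. Ndufa4l2, a hypoxia-induced relative of Ndufa4, had 250, at 7 to 24 UMIs in each library. Cox6b2 had 233, of which 46 lay in Q1 on day 4 and 19 in Q1 on day 7, against 11 and 5 in Q4 of the same sections. On days 1 and 14 it had 8 and 9 UMIs in Q1 and 9 and 20 in Q4.

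Genes around the complexes were followed on lists of the same pathway. In this comparison of Q1 with Q4, 32.4% of all tested genes fell and 35.2% rose. On a list with complex II and electron and nucleotide carriers, 12 of 13 tested genes fell in Q1 and none rose, with a median log2 fold change of -1.54. This list also held Slc25a3, a phosphate carrier, and Atpif1, an ATP synthase inhibitor. Cyc1 (-1.48 ± 0.24), on it as well, is a complex III subunit that the name rule leaves out. The deepest fall was that of Etfdh (-2.13 ± 0.34), which feeds electrons from fatty acid oxidation into the chain. The adenine nucleotide carriers again differed by isoform. Slc25a4, the heart form, fell by 1.73 ± 0.31, and Slc25a5 did not pass the test (-0.39 ± 0.21, adjusted p = 0.114). All 12 tested mitochondrially encoded subunits fell (median -1.25), with mt-Co1 at -1.49 ± 0.40 (adjusted p = 0.00527). Of 26 tested assembly factors, which build the complexes and are not part of them, 24 fell and none rose. Their median, -0.80, was closer to 0 than that of the subunits. Among 10 tested regulators, 6 fell, including Perm1 (-1.91 ± 0.37), Ppargc1a (-1.80 ± 0.27), a coactivator of mitochondrial genes, and Esrra (-0.90 ± 0.15). The 2 that rose were Hif1a (1.26 ± 0.23, adjusted p = 0.000404), which responds to low oxygen, and Yy1 (0.31 ± 0.11, adjusted p = 0.0296).

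Set against the summed UMIs of the 10 sarcomere genes, the members were not uniformly lower in Q1. The log2 ratio of members to sarcomere genes, Q1 over Q4, was -0.33, -0.12, 0.97 and 0.03 on days 1, 4, 7 and 14. It was below 0 in 2 sections and above in 2. The sarcomere genes did not move alike, so this ratio depends on which of them carry the sum. On day 1, Actc1 stood at 9690 CPM without TMM scaling in Q1 and 8320 in Q4, and Tnni3 at 2845 and 8497. By complex it was -0.35 to -0.31 on day 1, -0.28 (complex IV) to 0.02 (complex I) on day 4, 0.79 to 1.08 on day 7 and 0.00 to 0.07 on day 14, so that the complexes lay on both sides of 0 on day 4. Without the day 7 spots of skeletal muscle, the day 7 values were 0.21, 0.18, -0.04 and 0.11 for complexes I, III, IV and V. Against the mitochondrially encoded subunits the members had 0.465, 0.346, 0.421 and 0.350 UMIs per mitochondrial UMI in Q4 and 0.402, 0.423, 0.456 and 0.298 in Q1 on days 1, 4, 7 and 14. The order of Q1 and Q4 differed between sections, lower in Q1 on days 1 and 14 and higher on days 4 and 7. In Q3 the ratio was 0.374, 0.271, 0.385 and 0.318, below Q4 in each section. On day 1, Q1 lay above Q3 and also above Q2 (0.359). The share used for ranking has mitochondrial UMIs in its total, and the effect of this on the ratio in Q4 was not tested.

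In Q2 the members together made up 10.1%, 8.21%, 8.51% and 11% of UMIs on days 1, 4, 7 and 14, between Q1 and Q4 in each section. None of the 76 members passed edgeR's test in Q2 against Q4, where 0.189% of all genes were lower and 3.36% higher. Their median log2 fold change was -0.40, and 11 had an unadjusted p under 0.05, as did 25.6% of all genes. DESeq2 called 1 member lower, Ndufc2 (-0.42, adjusted p = 0.0468), and 2.22% of all genes. The sections differed. The median over the members was -0.39, -0.60, -0.61 and 0.00 on days 1, 4, 7 and 14. Over all tested genes it was 0.00, 0.02, 0.02 and 0.01. Without the day 14 section, edgeR called 13 of the 76 members lower in Q2, 9 of them of complex I, where 8.2% of the genes tested in that fit were lower. In Q3 against Q4 the median was -0.01, and no member and 0% of all genes passed the test with edgeR or DESeq2. No member and 28 of all 4769 genes had an unadjusted p under 0.05. The error of edgeR's tests is pooled over Q1 to Q4, and Q1 differed most between sections. Cox6a2, for example, had a standard error of 0.37 in Q3 against Q4 and 0.39 in Q1 against Q4. The lack of calls in Q2 and Q3 therefore does not show that levels were equal there.

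The most cardiomyocyte-rich group, Q4, could be set side by side across days, as a description of 4 mice. From day 1 to day 14, no tested member changed by over 1.5-fold in Q4, where 3.25% of all tested genes were higher and 3.9% lower by that fold. The median ratio of the members was 1.05 with TMM scaling, where the Q4 factors were 0.968 on day 1 and 0.876 on day 14. As a share of all UMIs, the members together stood at 12.6% in Q4 on day 1 and 11.5% on day 14. Whether they rose or fell slightly thus depended on the scaling. Uqcrb had the highest ratio, with 1219, 1526, 1299 and 1737 normalized CPM on days 1, 4, 7 and 14, which is a ratio of 1.42 between day 14 and day 1. Atp5md, a small subunit of the ATP synthase, had a ratio of 1.36 and Cox7a2 of 1.3. At the other end were Uqcrc1 (ratio 0.719), with 1342, 975, 969 and 965, Ndufv1 (0.756) and Cox7b (0.786).

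Cox7b, a small subunit of complex IV encoded on the X chromosome (106015700 to 106022450), stood apart over the 4 days. It was at 3206, 5093, 3625 and 2521 normalized CPM in Q4 on days 1, 4, 7 and 14, so that the day 4 section was 2.02 times the day 14 section. It was the one member whose highest day exceeded its lowest by over 1.5-fold in Q4, where 24.8% of all tested genes did so, and the next largest range among members was 1.42-fold. The median range was 1.20-fold over members and 1.32-fold over all tested genes. In Q3 the ratio of day 4 to day 14 was 1.97, in Q2 it was 1.33, and in Q1 it was 0.574. With total UMIs as the scale the Q4 ratio was 2.05. With 1 mouse per day, this value belongs to a section and not to a time point.

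**Figure D5:**
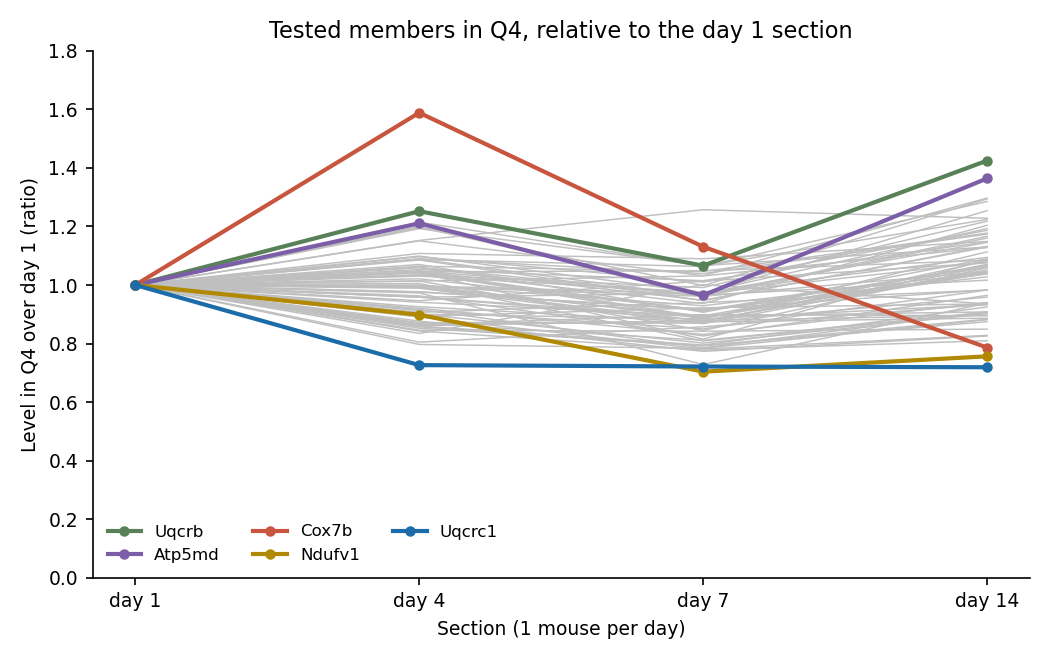
Level of each of the 76 tested members in Q4 as a ratio to the day 1 section (linear axis), with a line for each gene and 5 genes in colour; the days are spaced evenly and each is 1 mouse. Cox7b peaks in the day 4 section, Uqcrb and Atp5md are highest in the day 14 section, and Uqcrc1 and Ndufv1 end lowest, at 0.719 and 0.756 in the day 14 section.

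Annotated transcript length, which need not be that of the transcripts counted, went along with both differences to a small degree. Across the 76 members, which are not independent replicates, the longest annotated transcript (GENCODE vM21) correlated with the log2 fold change of Q1 over Q4 at a Spearman rho of -0.31 and with the log2 ratio of day 14 over day 1 in Q4 at -0.24. Over all tested genes the values were 0.03 and -0.09. The 19 shortest members had median log2 values of -1.22 and 0.10, and the 19 longest -1.45 and -0.10, respectively.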

How the data were processed

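Spatial expression was measured in 1 heart section from 1 mouse on each of days 1, 4, 7 and 14. The authors deposited counts, as filtered matrices of UMIs per gene and spot, made with Space Ranger 1.3.0 on mm10 with images aligned by hand; the submitters' processing notes also name Seurat 4.1.1. How reads shared with near-identical gene copies were counted is not given in the sources used here, and their effect was not tested. The paper gives removal of spots with over 1% hemoglobin UMIs, a limit that was applied here over 8 genes. The authors also removed edge spots by hand, which was not repeated. For day 14 the paper still counts more spots than the 2086 kept here, so the spots removed were not the same. Barcodes mark fixed positions of the slide design, and 1332 of 3178 were present in all 4 sections.

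Spots were ranked within a section on the share of Myh6 and Myl2, and UMIs were summed over Q1 to Q4. These 16 sums, not spots, entered edgeR 4.0.16 (R 4.3.3, TMM, robust quasi-likelihood fit, section block, 9 residual degrees of freedom), over 4769 genes of at least 1000 UMIs. The fit was run on simulated counts with less dispersion than in the data (common dispersion 0.0378) and the same lowering of a gene in every section. That run says nothing of how the fit behaves where effects differ between sections, as they do here. Standard errors were worked back as the absolute log2 fold change over the square root of the test's F statistic. P-values and standard errors rest on the spread between 4 sections that the section block leaves, pooled over Q1 to Q4. They do not measure the spread of Q1 against Q4 alone, which for Cox6a2 ran from -3.47 to -0.61 over the sections. Total depth was 1470333 to 4738818 UMIs per sum; 95% intervals (exact binomial or Poisson) cover counting error. DESeq2 1.42.0 was an alternative. Sums of UMIs per complex relative to sarcomere genes are given per section without a test, although one was planned. Gene positions are from GENCODE vM21. Named by rule were the paired or related isoforms, per complex the 2 lowest and 2 highest fold changes, members called against their complex's median, members under 10 UMIs, well-known subunits (Ndufs1, Ndufv1, Uqcrc1, Uqcrfs1, Atp5a1 and Atp5b; a further gene is not reported here), and the 3 largest and 3 smallest day ratios in Q4; Ndufc2 and the genes of the pathway lists were named after their values were seen. Members, lists and rules were chosen with earlier results of these data known. Spots thinned to 1000 UMIs were an alternative chosen after seeing the data.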

Additional observations from a re-analysis of the deposited data

Results flagged for a closer look

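Spots left out for hemoglobin were used in no comparison of the report, and entered just the alternative without that filter. There again 74 members were lower and 1 higher in Q1, where 1701 of all 5157 tested genes were lower and 1845 higher. Members made up 9.29% of their UMIs, against 10.0% in the spots kept. This difference lies in data that the comparisons did not use and was not tested. By section the removed spots had 9.23%, 7.88%, 9.64% and 10.0% on days 1, 4, 7 and 14, and the kept spots 10.6%, 8.87%, 9.42% and 10.9%. On day 7 the removed spots thus had the higher share.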

How the results depend on the processing

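The count of members lower in Q1 stayed between 72 and 75 under every alternative run, while the genes tested differed. In the main analysis it was 74 of 76, where 1547 of 4769 genes were lower. It was 72 of 76 with thinned spots (309 of 760 genes) and with Q1 and Q4 alone (681 of 2564). With genes of at least 10 UMIs it was 75 of 80 (3118 of 15062). The medians of the 4 complexes moved by less than the SD over sections in each alternative, which is a wide limit. For complex I, the medians of single sections ran from -2.19 to -0.53. Its median was -1.31 in the main analysis, -0.93 with total UMIs and -1.57 with genes of at least 10 UMIs. The count of members higher in Q1, 1 in the main analysis (Cox6a1), was 2 with total UMIs (with Cox8a), 0 with genes of at least 10 UMIs (Cox6a1 0.14, adjusted p = 0.511), 0 with Q1 and Q4 alone in the fit, and 0 to 1 when single sections were left out. Members lower in Q2, 0 in the main analysis, were 1 with DESeq2 and 0 to 13 when single sections were left out. Cox8a, not called in the main analysis, changed sign with total UMIs (0.35), with Q1 and Q4 alone (0.0182), with thinned spots (0.25) and without day 4 (0.00399) or day 7 (0.0278). Its values with single sections left out ran from -0.0415 to 0.0278. Cox7a2l changed sign with thinned spots (0.12) and was not called with Q1 and Q4 alone (-0.43, adjusted p = 0.133) or total UMIs (-0.09, adjusted p = 0.515). Atp5g2 was not called with Q1 and Q4 alone (-0.62, adjusted p = 0.0533) or thinned spots (-0.24, adjusted p = 0.0777). The mean log2 ratio Atp5g1/Atp5g3 was 0.0552 in place of 0.12 when spots were ranked on the 10 sarcomere genes. The mean relative to sarcomere genes (0.21, 0.17, 0.05 and 0.14 for complexes I, III, IV and V) was -0.00742, -0.0519, -0.16 and -0.0824 without skeletal muscle spots, -0.036 for complex IV without fat spots, and -0.0811 to 0.39, -0.13 to 0.35, -0.19 to 0.17 and -0.15 to 0.31 when single sections were left out, the lowest without day 7. From day 1 to day 14 in Q4, the count of members past 1.5-fold was 1 higher and 2 lower with genes of at least 10 UMIs (Cox6b2, Cox4i2 and Ndufa4l2, all rare) and 1 lower with total UMIs (Uqcrc1, ratio 0.651). The causes of these changes were not tested. The fewer genes in the fit with thinned spots (760) and with Q1 and Q4 alone (2564) follow from their lower totals.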
